A study of Mus musculus with 30 samples.

Results

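Microglia genes were followed in bulk RNA of the mouse dorsal CA1 (dCA1) after object location memory (OLM) training. The set was a list of 33 gene symbols that mark microglia, among them the defining markers P2ry12, Tmem119 and Cx3cr1. Each symbol matched 1 row of the expression table, so the set made up 33 of its 24883 rows, and all 33 were among the 13184 rows that passed the filter of a mean of at least 1 FPKM. FPKM counts sequenced fragments per kilobase of transcript, scaled to the number of mapped fragments, so levels can be compared between genes as well as between mice. None of the 33 genes was called changed after OLM training or with a CREST Y397 mutant plasmid. With condition means removed, all of them except Ltc4s and Slc2a5 rose and fell together from mouse to mouse, at pairwise Pearson correlations of 0.645 to 0.997.

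RNA was sequenced from 30 adult male C57BL/6J wild-type mice in 5 conditions of 6 mice, and per the study's methods each library came from a different mouse. The labels name the tissue as 1 hemisphere of dorsal hippocampus, the methods as dCA1. VEH-HC mice received the transfection reagent in vivo-jetPEI without DNA in both hemispheres and stayed in the home cage. VEH-T10 and Y397F-T10 mice were trained for 10 min, the threshold period, after reagent alone or after reagent with a plasmid for CREST Y397F. VEH-T3 and Y397D-T3 mice were trained for 3 min, the subthreshold period, after reagent alone or with a plasmid for CREST Y397D. The labels call Y397F phospho-null and Y397D phospho-mimetic. The paper could not detect phosphorylation of Y397 and treats both as point mutants only. The infusion came 3 days before training per the labels, and trained mice were dissected 1 h after training. All 5 conditions, VEH-HC included, therefore carried the infusion. Per the paper's methods, home-cage mice were otherwise only handled, whereas OLM mice were also habituated to the chamber before training. In comparisons with VEH-HC, training and habituation therefore cannot be told apart. The plasmids encoded HA-tagged mouse CREST behind a miniCaMK2 promoter, a fragment of a promoter used to drive expression in excitatory neurons, and the tissue was sequenced in bulk.

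Microglia are the resident macrophages of the brain parenchyma. In the healthy brain they survey their surroundings with motile processes, express a set of homeostatic surface receptors, depend on signalling through the receptor Csf1r, and in the hippocampus they take part in the removal of synapses, where complement C1q acts as a tag. When they respond to damage or take up debris they raise lysosomal and phagocytic genes, and the homeostatic genes change less or decline.

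The libraries differed little in depth, from 0.810 to 1.24 times the median library as judged from the smallest steps between FPKM values. The median FPKM of the tested rows ran from 9.08 in VEH-T3 mouse 1 to 10.3 in Y397F-T10 mouse 2. Ss18l1, the gene that encodes CREST, was at 10.4 to 14.7 FPKM over all mice, with overlapping ranges in the 5 conditions, and mutant and endogenous transcripts share this row. The choroid plexus genes stood far apart between mice, with a summed level of 6 genes from 10.1 FPKM in VEH-T10 mouse 2 to 12813 FPKM in VEH-T3 mouse 4.

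The defining markers were present in every library, the lowest at 9.14 FPKM for Tmem119 in VEH-T3 mouse 1. The highest member on average was Ctss at 147 FPKM, followed by C1qb at 125, C1qc at 122 and C1qa at 121 FPKM. These are levels per length of transcript, and the spread of each over mice was larger than the gaps between them. Slc2a5 at 1.81 and Ptprc at 2.52 FPKM were the lowest members, and the middle of the list was Fcgr3 at 19.7 FPKM.

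The summed level of the 33 genes ran from 425 FPKM in VEH-T3 mouse 1 to 2443 FPKM in VEH-T10 mouse 5. For VEH-HC mice the sum had a lowest value of 673, a median of 1228 and a highest value of 1449 FPKM. The 3 values were 541, 1441 and 2443 FPKM for VEH-T10, 532, 1294 and 1634 FPKM for Y397F-T10, 425, 1097 and 1915 FPKM for VEH-T3 and 693, 1059 and 1304 FPKM for Y397D-T3 mice. The ranges of all 5 conditions overlapped, and the range of every condition except Y397D-T3 held the medians of the other 4. Low libraries occurred in every condition: mouse 3 of VEH-HC, mouse 1 of VEH-T10, Y397F-T10 and VEH-T3, and mouse 3 of Y397D-T3. In bulk tissue, fewer microglia and less of these transcripts per microglial cell cannot be told apart.

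**Figure D1:**
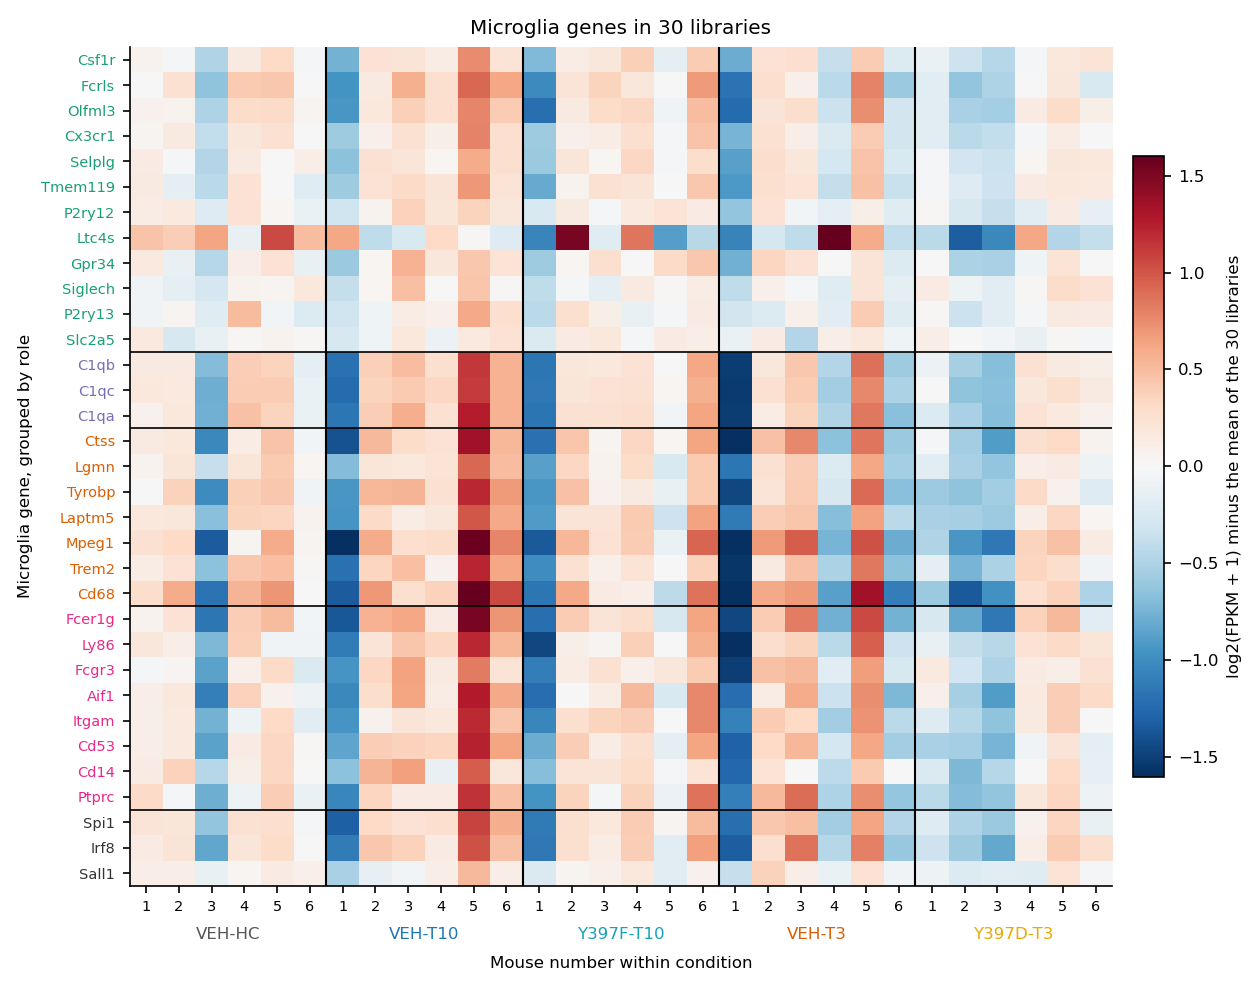
Level of each of the 33 microglia genes (rows, grouped by role in coloured names) in each of the 30 libraries (columns, mouse 1 to 6 within each condition), as log2(FPKM + 1) minus the mean of that gene over all libraries. Whole columns are blue or red, such as VEH-T3 mouse 1 and VEH-T10 mouse 5, and the row of Ltc4s departs from the others.

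The members moved as a block. After the condition means were removed from log2(FPKM + 1), the median Pearson correlation over the 528 pairs of members was 0.934 across the 30 libraries, and over the 465 pairs without Ltc4s and Slc2a5 it was 0.945, with a range of 0.645 to 0.997. These points share libraries and cells, so the correlations describe these mice and carry no test. The standard deviation (SD) within conditions had a median of 0.56 log2 units over the members, against 0.14 over all tested rows. Of the 33 genes, 25 lay above the 95th percentile of the 500 tested rows nearest to them in mean level. Differences between conditions accounted for a median of 6.97% of each member's variance, against 17.6% over all tested rows. This share is not corrected for the number of conditions, so it lies above 0 even where conditions do not differ.

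The homeostatic surface receptors showed the narrowest range of all the roles, with a median of 2.97 for the highest library over the lowest. P2ry12 (chr3:59216272-59262871 on mm10, minus strand), the ADP receptor that steers microglial processes, had lowest, median and highest values of 14.4, 17.8 and 20.03 FPKM for VEH-HC, 13.3, 19.3 and 22.1 FPKM for VEH-T10, and 14.1, 18.6 and 19.7 FPKM for Y397F-T10 mice. The values were 10.6, 15.8 and 20.04 FPKM for VEH-T3 and 12.8, 15.1 and 18.5 FPKM for Y397D-T3 mice. The 5 ranges overlapped, and the highest of all libraries was 2.09 times the lowest. P2ry12 and its neighbour P2ry13 lie inside the gene Med12l on the other strand, at 1.64 to 3.45 FPKM in these libraries, and exons of P2ry12 overlap exons of Med12l. Whether the counting used strand is not given in the sources used here, so reads of the overlapping stretch cannot be told apart.

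Tmem119, a transmembrane protein used as a microglia marker, was at 13.2, 17.2 and 21.3 FPKM for VEH-HC mice, with 11.9, 21.3 and 29.8 FPKM for VEH-T10 mice. The levels were 9.96, 19.9 and 24.7 FPKM for Y397F-T10, 9.14, 17.6 and 25.5 FPKM for VEH-T3 and 14.2, 18.9 and 20.5 FPKM for Y397D-T3 mice. Mice of VEH-T3 lay both below and above all mice of Y397D-T3 and VEH-HC. Cx3cr1, the receptor for the neuronal chemokine fractalkine, followed the same libraries, with a low of 12.6 FPKM in VEH-T3 mouse 1 and a high of 38.5 FPKM in VEH-T10 mouse 5. Its median was 23.3 FPKM for VEH-HC, 24.7 for VEH-T10, 23.4 for Y397F-T10, 20.9 for VEH-T3 and 20.2 for Y397D-T3 mice. Csf1r, the receptor on which microglial survival depends, ranged from 25.9 to 77.6 FPKM and had medians of 46.3, 52.9, 50.7, 46.4 and 43.8 FPKM in the same order.

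The other homeostatic genes were the sialic acid-binding lectin Siglech, the Fc receptor-like Fcrls, the lysophospholipid receptor Gpr34, the purinergic receptor P2ry13, the secreted glycoprotein Olfml3, the selectin ligand Selplg, the fructose transporter Slc2a5 and the leukotriene C4 synthase Ltc4s. Siglech was the member with the smallest range, with the highest library at 2.01 times the lowest. Apart from Ltc4s at 10.1 times, Fcrls and Olfml3 had the wider ranges among them, at 4.59 and 4.34 times. Slc2a5 stayed between 1.01 and 2.29 FPKM and correlated with the mean of the other members at only 0.405, a level at which the added 1 of the log scale also compresses differences.

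**Figure D2:**
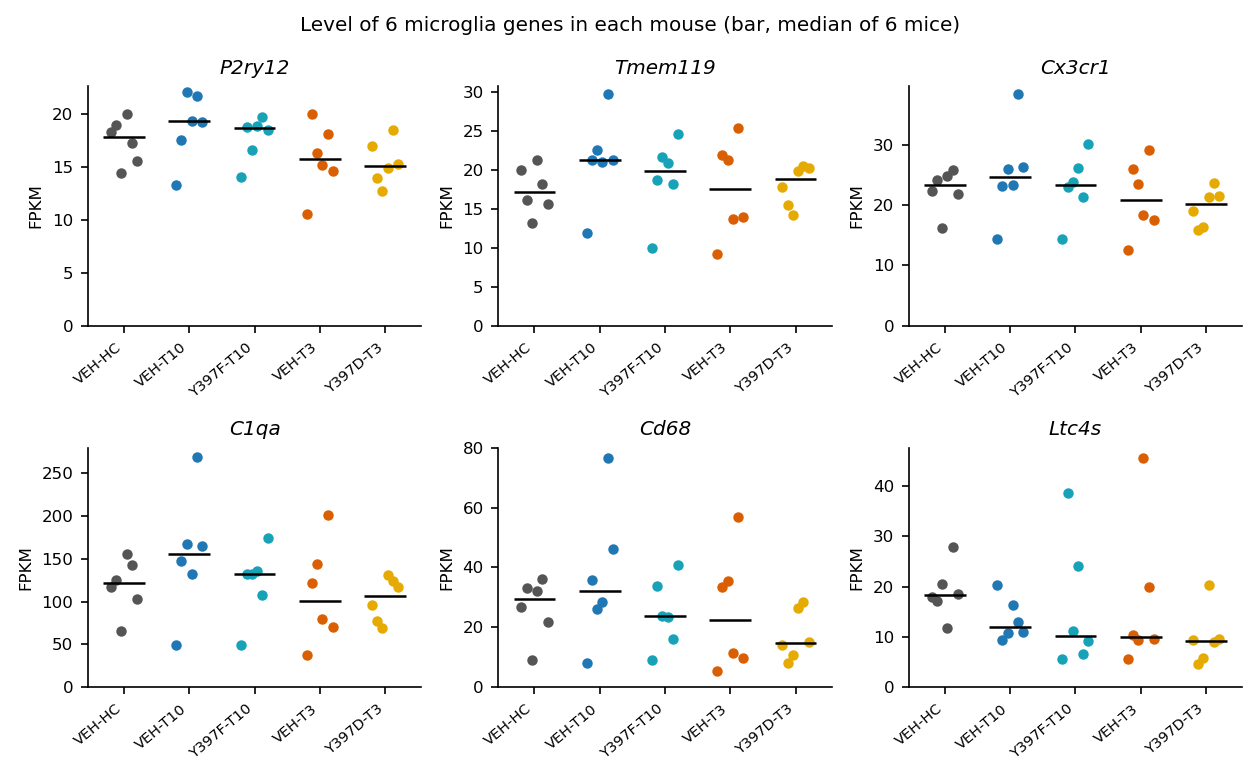
FPKM of P2ry12, Tmem119, Cx3cr1, C1qa, Cd68 and Ltc4s in each mouse of the 5 conditions (points), with the median of 6 mice as a bar and axes from 0. The conditions overlap in each panel; P2ry12 spans 10.6 to 22.1 FPKM and Cd68 spans 5.54 to 76.5 FPKM.

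The 3 chains of complement C1q, the recognition molecule of the classical pathway, are encoded side by side on chromosome 4. C1qa had lowest, median and highest values of 65.2, 121 and 155 FPKM for VEH-HC mice, and of 49.4, 156 and 269 FPKM for VEH-T10 mice. The values were 49.1, 132 and 174 FPKM for Y397F-T10, 38.1, 101 and 201 FPKM for VEH-T3, and 69.1, 106 and 131 FPKM for Y397D-T3 mice. All 5 ranges overlapped, and VEH-T3 and VEH-T10 held the lowest and the highest mouse. The chains were locked to each other: the ratio of C1qa to C1qb stayed between 0.887 and 1.06 in all 30 libraries and that of C1qc to C1qb between 0.899 and 1.05, while C1qb itself ran from 39.6 to 254 FPKM.

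Sequence is shown for the members whose RefSeq promoter window (250 bases before to 50 after the start, GRCm38.p6, the assembly behind mm10) holds the motif of PU.1, the transcription factor encoded by the member Spi1. Windows, 31 in all, were found for 25 of the 33 genes. GAGGAAGT, searched on both strands, was in 3 of these 31 windows, those of 3 genes, and in 3.2% of all 32851 windows. The composite of PU.1 with an interferon regulatory factor (GGAA, any 2 bases, GAAA, on both strands) was in 1 of the 31, that of Cd68, and in 2.72% of all windows. The cAMP response element TGACGTCA was in 0 of the 31 and in 1.79% of all windows. No window of a member held more than 1 of these motifs. The 30 bases around the motif are given for C1qc (chr4:136893091-136893120, minus strand), Ctss (chr3:95526773-95526802, plus strand) and Cd53 (chr3:106790125-106790154, minus strand), where it began at position -195, -2 and 7 from the RefSeq start; capitals mark the motif, here read as ACTTCCTC on the gene's strand.
C1qc: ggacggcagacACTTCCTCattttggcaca
Ctss: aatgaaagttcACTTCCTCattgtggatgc
Cd53: cactcagtctcACTTCCTCactcttctcgc
These are matches of letters, not shown binding. Each of these 3 genes followed the common level of the members closely, at correlations of 0.991 for C1qc, 0.985 for Ctss and 0.983 for Cd53. The median over all 33 members was 0.972, so this was not particular to genes with the motif.

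The phagocytic and lysosomal members included Cd68 and Mpeg1, the members with the widest ranges. Over the 7 genes of this role the highest library was a median of 7.45 times the lowest, below the 8.28 times of the 8 myeloid genes. Cd68, a lysosomal membrane glycoprotein that rises in phagocytosing macrophages, was at 9.06, 29.4 and 36.1 FPKM for VEH-HC mice, with 8.01, 32.05 and 76.5 FPKM for VEH-T10 mice. The values were 9.17, 23.7 and 40.7 FPKM for Y397F-T10, 5.54, 22.5 and 56.9 FPKM for VEH-T3 and 7.97, 14.7 and 28.4 FPKM for Y397D-T3 mice. The highest library was 13.8 times the lowest, and each condition had a mouse under 10 FPKM. Mpeg1, the pore-forming perforin-2 of macrophages, ranged over 12.9 times. The lysosomal proteases Ctss and Lgmn ranged over 7.85 and 4.28 times, and the lysosomal membrane protein Laptm5 over 4.57 times.

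Trem2, a lipid-sensing receptor that signals through the adaptor Tyrobp, was at 9.42 to 70.2 FPKM, and Tyrobp was at 23.4 to 153 FPKM. Trem2 had medians of 33.5 FPKM for VEH-HC, 39.9 for VEH-T10, 32.98 for Y397F-T10, 26.7 for VEH-T3 and 27.5 for Y397D-T3 mice. Tyrobp medians were 75.7, 95.9, 70.9, 65.6 and 50.6 FPKM in the same order. The ranges of every condition overlapped for both genes, and the ratio of Tyrobp to Trem2 stayed between 1.64 and 2.73 in the 30 libraries.

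At the median the homeostatic genes moved less than the other roles, but single genes overlapped. The slope of each member on the mean of the other members, on the log2(FPKM + 1) scale with condition means removed, had a median of 0.65 over the 12 homeostatic genes, 1.26 over the 7 phagocytic genes, 1.29 over the 3 C1q chains and 1.17 over the 8 myeloid genes. The homeostatic median includes Ltc4s at 0.33 and Slc2a5 at 0.13, which did not follow the other members. The homeostatic genes Fcrls at 1.07 and Olfml3 at 1.04 lay above the phagocytic Lgmn at 0.94 and the myeloid Cd14 at 0.84. The slopes were 0.37 for P2ry12, 0.67 for Cx3cr1, 0.73 for Tmem119 and 0.76 for Csf1r, against 1.79 for Cd68 and 1.85 for Mpeg1. As a result the ratio of Cd68 to P2ry12 was not constant: it was 0.525 in VEH-T3 mouse 1 and 3.52 in VEH-T10 mouse 5. Within VEH-HC alone it ran from 0.627 to 2.09, so it varied in mice that were not trained too. Members were grouped by role with earlier results of these data known, and the slopes are a description.

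**Figure D3:**
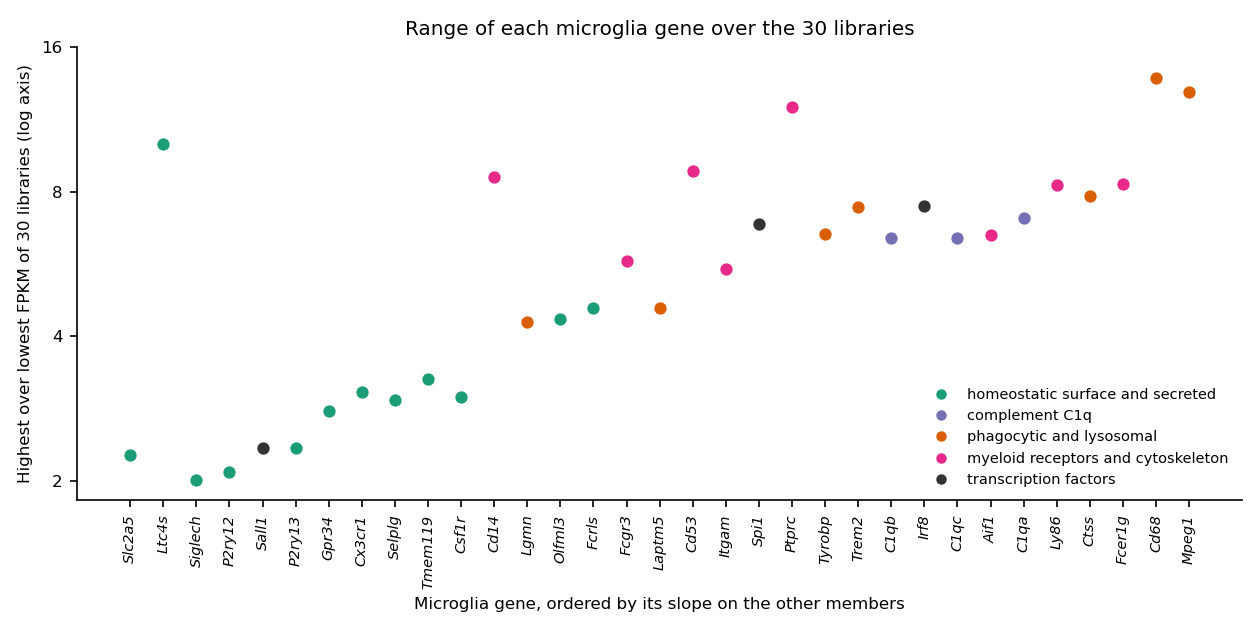
Highest FPKM over lowest FPKM among the 30 libraries (log axis) for each microglia gene, ordered by its slope on the mean of the other members and coloured by role. Apart from Ltc4s at 10.1, the homeostatic genes sit at 2.01 to 4.59, and Mpeg1 and Cd68 sit at the far right at 12.9 and 13.8.

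Among the general myeloid genes, Ptprc (the leukocyte antigen CD45) ranged over 12.03 times, from 0.517 to 6.22 FPKM. Cd53, a tetraspanin, ranged over 8.85 times, Cd14, a co-receptor for lipopolysaccharide, over 8.59 times, the Fc receptor gamma chain Fcer1g over 8.29 times and Ly86 over 8.27 times. Aif1, which encodes the microglia stain IBA1, was at 5.24 to 34.0 FPKM, with medians of 14.5 for VEH-HC, 18.9 for VEH-T10, 14.2 for Y397F-T10, 12.7 for VEH-T3 and 14.8 for Y397D-T3 mice. The integrin Itgam (CD11b) and the Fc receptor Fcgr3 ranged over 5.53 and 5.75 times. Fcgr3 resembles other Fc gamma receptor genes in sequence, so part of its reads could have been assigned to a relative.

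The transcription factors split. Spi1 (PU.1) had medians of 9.51 FPKM for VEH-HC, 10.2 for VEH-T10, 9.63 for Y397F-T10, 8.52 for VEH-T3 and 7.17 for Y397D-T3 mice, over a range of 2.69 to 18.4 FPKM. Irf8, its partner in macrophage gene expression, ranged from 1.71 to 12.7 FPKM. Sall1, which holds the microglial identity in place, ranged only from 3.49 to 8.20 FPKM, with medians of 5.84, 5.56, 5.67, 5.53 and 4.86 FPKM in the same order. Their slopes on the other members were 1.19, 1.28 and 0.37, so Sall1 lay with P2ry12 and Siglech at the narrow end.

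Ltc4s did not follow the other microglia genes. Its lowest, median and highest values were 11.7, 18.3 and 27.9 FPKM for VEH-HC, 9.42, 12.01 and 20.3 FPKM for VEH-T10, and 5.65, 10.2 and 38.6 FPKM for Y397F-T10 mice. They were 5.62, 9.94 and 45.6 FPKM for VEH-T3 and 4.53, 9.18 and 20.3 FPKM for Y397D-T3 mice. VEH-HC mice lay mostly high, but every trained condition had mice within or above their range. Its correlation with the mean of the other members was 0.227.

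Instead Ltc4s moved with choroid plexus genes, the secretory epithelium of the ventricles. Across the 30 libraries, with condition means removed, its Pearson r with the mean of 6 choroid plexus genes was 0.876 and Spearman's rho 0.856, and r was 0.839 without the 2 libraries farthest from the median. The other 32 members had correlations with that mean between -0.119 and 0.244, with a median of 0.0769. The 5 rows whose level was most like that of Ltc4s were Sgk3, Igfbp2, Col9a3, C1qtnf5 and Fkbp9, at r of 0.943 to 0.956. The summed choroid plexus level had a lowest value of 919, a median of 3156 and a highest of 5615 FPKM in VEH-HC. The values were 10.1, 101 and 4482 FPKM in VEH-T10, 28.8, 55.8 and 10423 FPKM in Y397F-T10, 29.7, 1957 and 12813 FPKM in VEH-T3 and 14.1, 124 and 2846 FPKM in Y397D-T3. Each trained condition thus had a lower median of the summed level than VEH-HC, and the lowest such median was that of Y397F-T10. The part of choroid plexus tissue in the Ltc4s values was not tested.

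**Figure D4:**
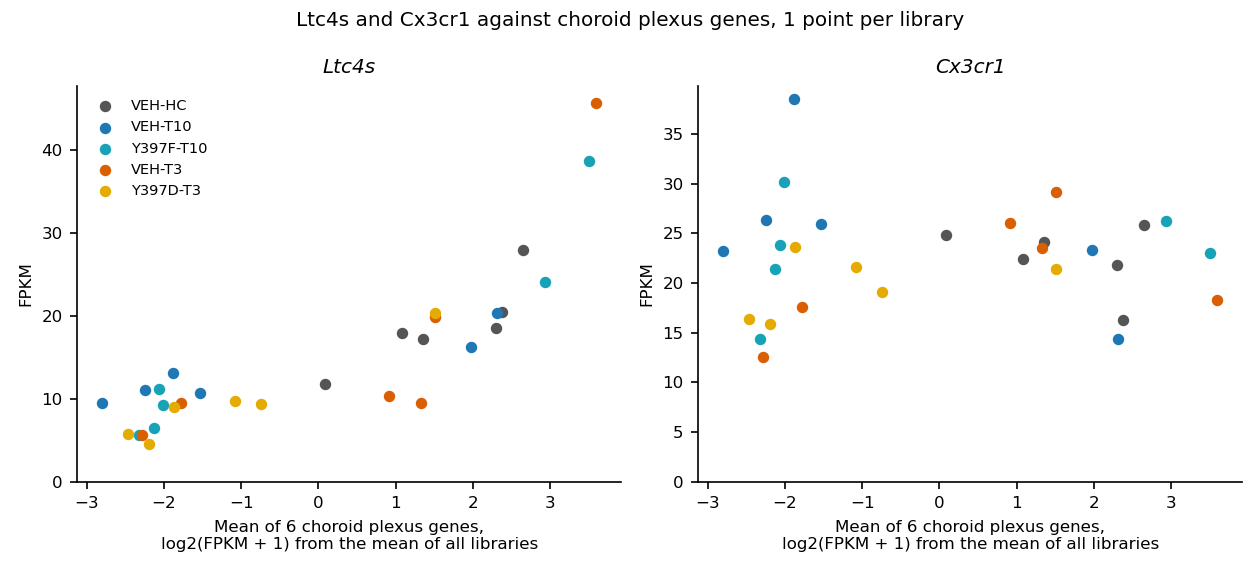
FPKM of Ltc4s (left) and of the microglia marker Cx3cr1 (right) against the mean log2(FPKM + 1) of 6 choroid plexus genes, as distance from the mean of all libraries; each point is 1 library, coloured by condition. Ltc4s reaches 45.6 FPKM in the library with the most choroid plexus RNA, VEH-T3 mouse 4, and Cx3cr1 shows no such order.

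Each trained condition was first compared with VEH-HC, with limma on log2(FPKM + 1) over all 30 libraries and Benjamini-Hochberg adjustment over the 13184 rows. These comparisons hold habituation to the chamber as well as training. In VEH-T10 against VEH-HC, 0 of 33 members were called, where 0.819% of all rows were, and 0 passed an unadjusted p of 0.05, where 14.9% of all rows did. The median log2 fold change of the members was 0.18, with 31 of 33 above 0, beside a median of -0.03 over all rows. The size rested on single mice: the member median was 0.05, with 26 of 33 above 0, without VEH-T10 mouse 5, 0.06 without VEH-HC mouse 3 and 0.45 without VEH-T10 mouse 1. The highest values were 0.39 for Aif1 (standard error (SE) 0.364, 95% interval -0.36 to 1.13, adjusted p = 0.671) and 0.37 for Cd53 (SE 0.308, -0.26 to 1.00, adjusted p = 0.62). The values below 0 were -0.47 for Ltc4s and -0.05 for Sall1.

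In VEH-T3 against VEH-HC, 0 of 33 members were called by limma, where 5.17% of all rows were, and 0 passed an unadjusted p of 0.05 (21.6% of all rows). The median member change was -0.12, with 2 of 33 above 0, Fcgr3 at 0.06 and Ptprc at 0.04. Apart from Ltc4s at -0.46, the lowest value was -0.35 for Cd68 (SE 0.496, 95% interval -1.37 to 0.67, adjusted p = 0.756). The direction rested on mouse 1 of VEH-T3: without this library alone the median was 0.06 and 24 of 33 members lay above 0, whereas without any other single mouse of these conditions the median stayed below 0, with the lowest at -0.29 without VEH-T3 mouse 5. Without mouse 1 of each condition, a setting chosen after seeing the data, the median was 0.08 and 26 of 33 members lay above 0.

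In Y397F-T10 against VEH-HC, 0 of 33 members were called by limma (1.13% of all rows), 0 passed an unadjusted p of 0.05 (16.9%), and 16 lay above 0. Itgam had the highest value at 0.19 (95% interval -0.45 to 0.84). The number above 0 was 4 without VEH-HC mouse 3 and 31 without Y397F-T10 mouse 1. In Y397D-T3 against VEH-HC, 0 of 33 were called (7.07% of all rows), and at an unadjusted p of 0.05 the single member that passed was Ltc4s (24.9% of all rows). Ltc4s had a log2 fold change of -0.99 (SE 0.408, 95% interval -1.82 to -0.15, limma adjusted p = 0.131). The median of the summed choroid plexus level was 124 FPKM in Y397D-T3, 101 FPKM in VEH-T10, 55.8 FPKM in Y397F-T10 and 1957 FPKM in VEH-T3. The median log2 fold change of the 6 choroid plexus genes against VEH-HC was -2.67, -2.17, -1.86 and -1.11 in the same order. Ltc4s values against VEH-HC were -0.47 in VEH-T10, -0.52 in Y397F-T10 and -0.46 in VEH-T3. The part of choroid plexus tissue in these values was not tested. Fitted on the libraries of VEH-HC and Y397D-T3 alone, Ltc4s passed, at a limma adjusted p = 0.0314. Cd68 came next at -0.62 (SE 0.496, -1.63 to 0.40), and 4 of 33 members lay above 0, led by Siglech at 0.11. The member median was -0.31 without VEH-HC mouse 3 and -0.07 without Y397D-T3 mouse 3.

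Each CREST mutant was compared with its vehicle after the same training. The vehicle held no DNA, so plasmid delivery, added CREST and the point mutation cannot be told apart. The paper states that overexpression of wild-type CREST was not tested. In Y397F-T10 against VEH-T10, 0 of 33 members and 0% of all rows were called by limma, and at an unadjusted p of 0.05 0 members and 3.78% of all rows passed. The median member change was -0.19, with 1 of 33 above 0, and the lowest were Cd68 at -0.44 (95% interval -1.46 to 0.57) and Tyrobp at -0.37 (-1.07 to 0.33). This direction rested on Y397F-T10 mouse 1: without it the median was 0.0072 and 18 of 33 members lay above 0, and without VEH-T10 mouse 1 the median was -0.41. In Y397D-T3 against VEH-T3, 0 of 33 members and 0.00758% of all rows were called, with 0 members and 7.87% of rows at an unadjusted p of 0.05. The median was -0.03, with 12 of 33 above 0, among them Siglech at 0.15 (-0.10 to 0.41) and Ly86 at 0.11 (-0.64 to 0.85). The direction turned with single mice: the median was above 0 without mouse 2, 3 or 5 of VEH-T3 or mouse 2 or 3 of Y397D-T3, at most 0.096 with 28 of 33 members above 0 (without VEH-T3 mouse 5), and it was -0.24 with 2 above 0 without VEH-T3 mouse 1.

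Between the training periods, VEH-T10 against VEH-T3, 0 of 33 members were called by limma (0.0455% of all rows) and 0 passed an unadjusted p of 0.05 (8.15%). The median member change was 0.31, with 31 of 33 above 0. It was 0.11 without VEH-T3 mouse 1 and 0.56 without VEH-T10 mouse 1. P2ry12 came closest to the unadjusted threshold, at 0.25 (SE 0.122, 95% interval -0.00038 to 0.50, limma adjusted p = 0.614). Cd68 was at 0.66 (-0.36 to 1.67) and C1qa at 0.54 (-0.19 to 1.26). The members share their libraries, so their common sign is not independent evidence from each gene.

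With all trained mice together against VEH-HC, 0 of 33 members were called by limma, where 9.66% of all rows were, and 0 passed an unadjusted p of 0.05 (25.3%). The median was -0.01, with 16 of 33 above 0 and Fcgr3 highest at 0.14 (95% interval -0.36 to 0.64), and with 1 library left out the median ran from -0.16 (VEH-HC mouse 3) to 0.04 (VEH-T10 mouse 1). With both plasmids against both trained vehicle conditions, 0 of 33 members and 0% of all rows were called, 0 members and 2.4% of rows passed an unadjusted p of 0.05, the median was -0.11 and 2 of 33 lay above 0. Without Y397F-T10 mouse 1 that median was -0.01 and 14 of 33 lay above 0. In the 7 comparisons of a pair of conditions, 0 of 33 members had values that did not overlap. The share of all rows without overlap was 2.43% in VEH-T10, 1.99% in VEH-T3, 1.8% in Y397F-T10 and 5.52% in Y397D-T3 against VEH-HC, 0.258% in Y397F-T10 against VEH-T10, 0.228% in Y397D-T3 against VEH-T3 and 0.387% between the training periods.

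**Figure D5:**
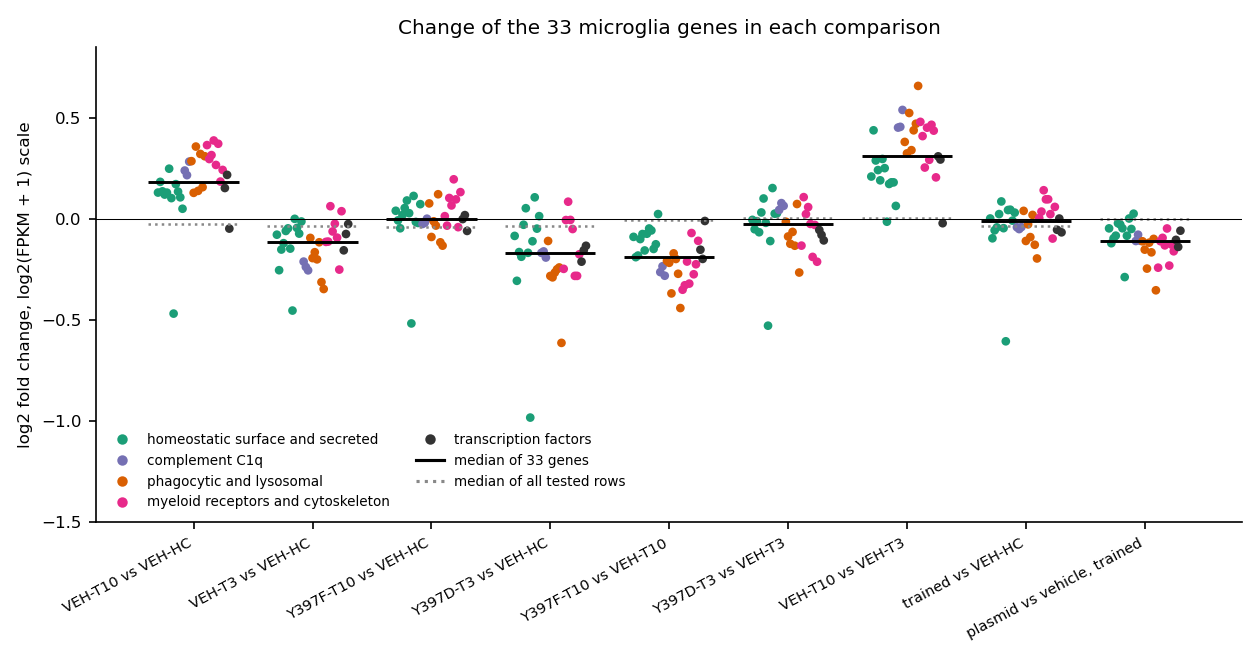
log2 fold change of each of the 33 microglia genes (points, coloured by role) in the 9 comparisons, with the median of the members as a solid line and the median of all 13184 tested rows as a dotted line. The member medians run from -0.19 to 0.31, and the point near -0.99 is Ltc4s in Y397D-T3 against VEH-HC.

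The precision sets what these comparisons could show. The median SE of a member's log2 fold change between conditions was 0.31, against 0.08 over all rows, and it was as high as 0.50 for a single member. P2ry12, with an SE of 0.122, had a 95% interval of -0.15 to 0.35 in VEH-T10 against VEH-HC, and Cx3cr1 one of -0.27 to 0.51. For Cd68 the interval in VEH-T3 against VEH-HC reached from a fall of 1.37 to a rise of 0.67, so with 6 mice per condition these data leave room for a change of either sign within those limits.

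Genes of related programmes were read from lists, and the genes named from them without a call were chosen after their values were seen. Of 15 genes of disease-associated microglia, 14 were tested, and 0 were called in any of the 9 comparisons. Their mean tracked the microglia mean across the 30 libraries with an r of 0.980. Among them Gpnmb, a lysosomal glycoprotein, ran from 0.775 to 83.3 FPKM, Spp1 (osteopontin) from 2.42 to 162 FPKM and the lysozyme Lyz2 from 6.25 to 404 FPKM, the lowest and the highest in VEH-T3 and VEH-T10 mice. In VEH-HC mice alone Lyz2 ran from 12.5 to 148 FPKM, so this variation too was present without training.

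Of 14 interferon response genes and 9 genes of the complement cascade beyond C1q, 0 were called in any comparison by limma, and their means tracked the microglia mean at r of 0.890 and 0.942. C3, the central complement component, ran from 0.166 to 43.3 FPKM and C4b from 7.78 to 57.9 FPKM. Of 15 inflammatory genes, 9 were tested and 1 was called: Ptgs2, the inducible cyclooxygenase, which neurons of the hippocampus also express, was higher on average over the trained conditions than in VEH-HC (log2 fold change 0.29, SE 0.0791, limma adjusted p = 0.0232). In this comparison 9.66% of all rows were called, so 1 of 9 is near the background. Ptgs2 was at 3.90, 5.45 and 6.17 FPKM in VEH-HC and had a median of 6.68 FPKM in VEH-T10. Among the listed cytokines, Tnf was low at 0 to 1.12 FPKM and Il1b at 0.0842 to 1.13 FPKM. The chemokines Ccl2, Ccl3, Ccl4 and Ccl12 of the same list passed the filter. The 15 genes summed to 21.6 to 94.3 FPKM over the libraries, and the mean of the 9 tested tracked the microglia mean at r 0.960.

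Of 10 ligands and receptors between neurons and microglia, 9 were tested, and 1 of the 9 passed in each of 2 comparisons. Of all rows, 5.17% (VEH-T3 against VEH-HC) and 9.66% (all trained mice against VEH-HC) were called. A single gene of 9 does not set the list apart from these shares. Cd47 and Cd200, the genes that passed, encode surface proteins of neurons that restrain macrophages. Cd47, whose receptor is Sirpa, was higher after subthreshold training than in the home cage vehicle (VEH-T3 against VEH-HC, log2 fold change 0.20, SE 0.0566, limma adjusted p = 0.036). Its values were 28.1, 30.4 and 32.5 FPKM against 22.0, 27.1 and 27.4 FPKM, with no overlap. The share of all rows without overlap was 1.99% in this comparison. After threshold training Cd47 was at 23.6, 25.9 and 27.0 FPKM in VEH-T10 (log2 fold change against VEH-HC -0.03, limma adjusted p = 0.846). Cd200 was lower on average over the trained conditions than in VEH-HC (log2 fold change -0.21, SE 0.0636, limma adjusted p = 0.0357), with 29.9, 31.7 and 32.7 FPKM in VEH-HC and medians of 28.7 FPKM for VEH-T10, 26.7 for Y397F-T10, 24.2 for VEH-T3 and 26.2 FPKM for Y397D-T3 mice. Cx3cl1, the ligand of Cx3cr1, stayed between 180 and 222 FPKM over all mice.

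Among the rows outside the list that were most like the microglia mean were Arpc1b (r 0.989), Pld4 (0.987), Unc93b1 (0.986), Ctsh (0.984), Vim (0.982), Ctsz (0.981), Ncf1 (0.980), S100a6 (0.980) and Tagln2 (0.976). Vim, an intermediate filament protein of glia and mesenchymal cells, ran from 16.6 to 305 FPKM.

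Markers of other cells moved with the microglia genes. The mean of 8 astrocyte genes tracked the microglia mean at r 0.923 with a slope of 0.42, and Gfap, the filament protein of reactive astrocytes, ran from 141 FPKM in VEH-T3 mouse 1 to 1194 FPKM in VEH-T10 mouse 5, the same libraries that held the extremes of the microglia genes. Endothelial genes tracked it at r 0.798 and neuron genes inversely at -0.706, with a slope of -0.14. Oligodendrocyte genes had a Pearson r of 0.700 but a rho of 0.273. The relative depth of the library had an r of -0.163 and the median FPKM 0.691. Of the 8 genes on each of these 4 lists, limma called 3 neuron genes higher and 1 lower, 1 endothelial gene lower and 0 astrocyte or oligodendrocyte genes in all trained mice against VEH-HC, where 9.66% of all rows were called. The part of tissue composition in the level of the microglia genes was not tested.

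Border macrophages and blood leukocytes express several of the general myeloid members. The 8 border macrophage markers summed to 8.13 to 17.8 FPKM for VEH-HC, 5.56 to 40.3 for VEH-T10, 7.61 to 21.04 for Y397F-T10, 6.46 to 23.5 for VEH-T3 and 7.18 to 12.4 FPKM for Y397D-T3 mice. Of these markers, 5 passed the filter. Mrc1 stayed between 0.442 and 1.30 FPKM and Lyve1 between 0.0216 and 0.501 FPKM, so most of the sum came from the other markers. The 8 leukocyte markers summed to 1.75 to 56.9 FPKM, and 4 of them passed the filter. The B cell gene Ms4a1 was at or near 0, so the other leukocyte markers made up this sum. The means of the tested markers tracked the microglia mean at r 0.875 for 5 border macrophage genes and 0.806 for 4 leukocyte genes. Their part in the member levels was not tested.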

How the data were processed

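The deposited FPKM values, 1 column per mouse, were used as the authors made them. The submitters' processing notes name TopHat2 2.1.1, Cufflinks 2.2.1 and mm10, for paired-end reads from the NovaSeq and HiSeq platforms. The platform of each library is not given in the sources used here. FPKM keeps no counts, so no count test was run. Relative depth came from the ratios of low values over 2642 rows.

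Rows with a mean of at least 1 FPKM were fitted as log2(FPKM + 1) with limma 3.58.1 in R 4.3.3, with 1 coefficient per condition, a mean-dependent prior variance and Benjamini-Hochberg adjustment at 0.05. The added 1 understates changes of low genes. Tables and figures used Python 3.11.15, pandas 2.3.3, numpy 2.4.6, scipy 1.17.1 and matplotlib 3.10.9. The fit was tested on simulated data. Correlations used values with condition means removed. Each library is a different mouse per the study's methods.

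Values by condition were given for the defining markers, C1qa, Csf1r, Trem2, Tyrobp, Spi1, Sall1, Ltc4s, Cd68 and Aif1. Ltc4s, Cd68 and Aif1 were among the 2 members with the highest or the 2 with the lowest change in a comparison. Most other members named by that rule, and C1qb, C1qc and Irf8, were described by their range, ratio or change instead. Members, roles and gene lists were chosen with earlier results of these data known. Comparisons against VEH-HC share its mice. Alternatives were a pseudocount of 0.1, no filter (values above 0 in at least 6 libraries), centring each library on its median, fitting only the conditions compared, a replicate block, summed rows per symbol, unadjusted p, and leaving out each library. Some genes that these rules or lists would name are not reported here.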

Additional observations from a re-analysis of the deposited data

Results flagged for a closer look

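Among the 165 sets of 6 mice (33 genes in 5 conditions), 27 had a highest or lowest mouse separated from the nearest other mouse by a larger share of the range of the set than Dixon's 95% critical value for 6 samples. Gaps and ranges were measured on log2(FPKM + 1), and the values below are given in FPKM. Chance flags about 1 in 20 groups, and the members share libraries, so these are not independent.

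In VEH-HC, mouse 3 was the separated lowest mouse for Cx3cr1 at 16.3 FPKM, Olfml3 at 18.9, Selplg at 12.9, Tyrobp at 32.2, Ctss at 64.6, Laptm5 at 22.7, Mpeg1 at 10.4, Aif1 at 5.83, Cd53 at 2.47, Fcer1g at 18.5, Spi1 at 4.90 and Irf8 at 2.81 FPKM. For Mpeg1, the pore-forming protein of macrophages, the other 5 mice lay at 28.7 to 42.6 FPKM. Mouse 4 of VEH-HC was the separated highest mouse for P2ry13 at 7.73 FPKM, with the others at 4.30 to 5.35 FPKM.

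In VEH-T10, mouse 1 was the separated lowest mouse for Olfml3 at 13.7 FPKM, C1qb at 50.2, C1qc at 47.5 and Spi1 at 2.69 FPKM. For C1qb the others lay at 139 to 254 FPKM.

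In Y397F-T10, mouse 1 was the separated lowest mouse for Tmem119 at 9.96 FPKM, Olfml3 at 11.2, C1qb at 51.5, C1qc at 50.2, Trem2 at 14.4, Ctss at 57.4, Fcgr3 at 8.11, Ly86 at 9.57, Cd14 at 1.87 and Spi1 at 3.18 FPKM. For Trem2 the others lay at 29.7 to 38.4 FPKM. No set of VEH-T3 or Y397D-T3 mice passed this limit, although VEH-T3 mouse 1 held the lowest value of most members.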

How the results depend on the processing

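The count of called microglia genes stayed at 0 in all 9 comparisons under every alternative run, except that it was 1 (Ltc4s) for Y397D-T3 against VEH-HC when only the libraries of those conditions were fitted, and 1 (Ltc4s) there with an unadjusted p; the cause was not tested. With the replicate number as a block the count was 0 in every comparison, with a smallest adjusted p of 0.114 by limma. Same-numbered mice of different conditions correlated at a median of 0.0416 (-0.50 to 0.84) and others at 0.00649 (-0.62 to 0.74). Mouse 1 of VEH-T3, Y397F-T10 and VEH-T10 had the lowest microglia means of all libraries. Whether some same-numbered mice shared a batch was not tested. Of 35 named changes, 16 changed direction when a library, or mouse 1 of every condition (chosen after seeing the data), was left out. The ranges of log2 fold change were, against VEH-HC, -0.15 to 0.066 for Sall1 in VEH-T10, -0.086 to 0.37 for Fcgr3 and -0.14 to 0.32 for Ptprc in VEH-T3, -0.024 to 0.41 for Ptprc and -0.40 to 0.13 for Cd68 in Y397F-T10, and -0.064 to 0.18 for Fcgr3 in Y397D-T3. For all trained mice they were -0.0074 to 0.33 for Fcgr3, -0.041 to 0.30 for Itgam and -0.46 to 0.064 for Cd68. For Y397D-T3 against VEH-T3 they were -0.20 to 0.33 for Ly86 and -0.59 to 0.041 for Cd68, for VEH-T10 against VEH-T3 -0.13 to 0.082 for Sall1 and -0.36 to 0.33 for Ltc4s, for Y397F-T10 against VEH-T10 -0.032 to 0.078 for Slc2a5, and for the plasmids -0.019 to 0.052 for Slc2a5 and -0.051 to 0.039 for Siglech. With a pseudocount of 0.1, Ptprc in VEH-T3 against VEH-HC was -0.045. Without mouse 1 of every condition the median member change was 0.45 in VEH-T10 and 0.21 in Y397F-T10 against VEH-HC, and -0.23 in Y397D-T3 against VEH-T3, with 0 calls. FPKM without counts gives no counting interval.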
